A study of Mus musculus with 14 samples.

Results

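Label-retaining cells of the stem and progenitor compartment of mouse bone marrow were set against cells that had diluted the label part of the way. Of 14 arrays in the series, 12 entered the contrast: the 6 arrays of the label-retaining pool (GFP3, 2 arrays, and GFP4, 4 arrays) and the 6 arrays of the intermediate pool (GFP1, 3 arrays, and GFP2, 3 arrays). The remaining 2 arrays, from GFP0 cells, were left out of the contrast and are given beside it as a description. Arrays were pooled by the GFP rank in their titles, and 18194 genes were described, each by its brightest probe set over the 14 arrays.

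All mice were double transgenic for hCD34 and H2BGFP on a C57BL/6 background, backcrossed for at least 10 generations. A human CD34 promoter drove the tetracycline transactivator, which in turn switched on a fusion of histone H2B with GFP, so labelling depended on where that human promoter was active. Every mouse, in both pools, drank doxycycline at 1 mg/ml for 12 weeks, starting at 6 to 8 weeks of age, and this stopped further labelling. Lineage-negative, Sca1-positive, Kit-positive (LSK) cells were then sorted at 5 ranked GFP levels, with about 1 to 2 divisions between neighbouring levels, and their RNA was amplified before hybridisation. The labels name the arrays of a level biological replicates but not the animals or pools behind them, so a p-value here reflects only how these samples vary among themselves, which may be technical.

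LSK cells hold the hematopoietic stem cells (HSCs) and the multipotent progenitors that arise from them. Most long-term HSCs divide rarely and carry the surface protein CD150 without CD48, whereas multipotent progenitors divide often, gain CD48 and begin to express lymphoid or myeloid genes. Because each division shares the H2B-GFP between daughter cells, a cell that still carries much GFP at the end of the chase has divided few times.

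The contrast asked which genes differ between LSK cells that kept the label and LSK cells that held less of it. Imprinted and HSC genes (Meg3, Ndn, Mllt3, Tgm2, Pdzk1ip1, Cdkn1c) were higher in the label-retaining pool, by 2.62-fold to 8.88-fold. Progenitor surface and lymphoid genes (Cd48, Dntt, Cd244a) and replication genes (Tk1, Gins1, Rrm1) were lower there, by 2.28-fold to 8.25-fold. In limma with Benjamini-Hochberg adjustment over all genes, 123 of 18194 genes (0.676%) passed an adjusted p of 0.05, of which 63 were higher (0.346%) and 60 lower (0.33%). At an unadjusted p under 0.05 there were 1116 higher (6.13%) and 1433 lower genes (7.88%).

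Among the 63 genes that rose, sizes ran from 0.53 to 3.15 on the log2 scale, and 43 reached 2-fold. Among the 60 that fell, sizes ran from 0.47 to 3.40, and 45 reached 2-fold. The 6 and 6 arrays did not overlap for 45 of the 63 and 49 of the 60, beside 112 (0.616%) and 153 (0.841%) of all genes. For 36 of the genes that rose the array carried other probe sets, and 7 of these had another one past the threshold the same way, while 3 had one of opposite sign. For the genes that fell these numbers were 37, 9 and 9.

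**Figure D1:**
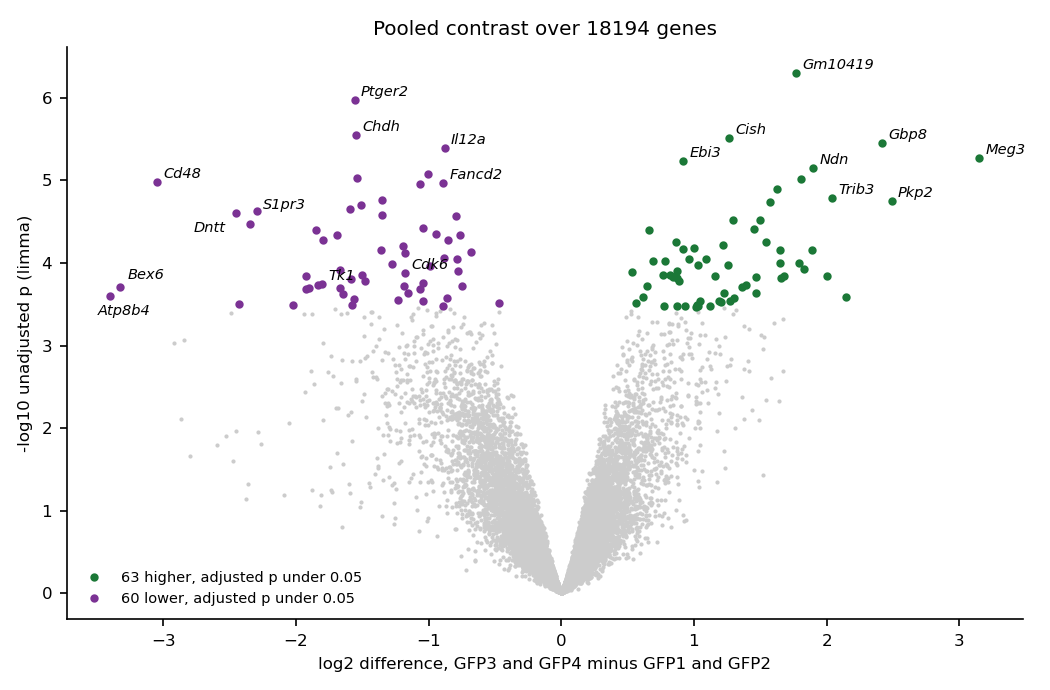
Each point is 1 of 18194 genes; the horizontal axis is the log2 difference of the pool means and the vertical axis the -log10 unadjusted p of limma. Green points mark the 63 genes that were higher in the label-retaining pool and purple points the 60 that were lower, with Meg3 farthest to the right at 3.15.

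How many genes passed depended on single arrays. The count was 25 without GFP1 replicate 1, 33 without GFP1 replicate 3, 10 without GFP2 replicate 1, 49 without GFP2 replicate 2 and 198 without GFP2 replicate 3. It was 252 without GFP3 replicate 1, 40 without GFP3 replicate 2, 21 without GFP4 replicate 1, 19 without GFP4 replicate 3 and 26 without GFP4 replicate 4. The direction did not change for any of the 123 genes in any of these fits. They were chosen on these same arrays, and where arrays do not overlap, leaving out 1 cannot reverse a direction. Ptger2, Chdh, Il12a, Cd53, Gbp8, Cish, Gm10419, Ndn, Ebi3 and Meg3 passed in all 12. With cyclic loess on top of the deposited values the split was 70 higher and 43 lower.

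Measures of 3 prime bias averaged higher in the label-retaining pool, but their arrays overlapped and neither differed at p under 0.05 by permutation. The signal of the Actb probe set at the 3 prime end minus that at the 5 prime end averaged 4.46 ± 0.46 (SD, n = 6) in the label-retaining pool and 3.84 ± 0.59 (SD, n = 6) in the intermediate pool. By a two-sided exact permutation test over 924 splits p was 0.0736, and 0.292 after adjustment over 11 array measures. With this difference and that of Gapdh as covariates, limma called 0 genes at the adjusted threshold and 1092 at an unadjusted p under 0.05. All 123 genes, which were chosen on these same arrays, kept their direction in that fit. The median ratio of the new size to the reported one was 0.897 (lowest 0.645).

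**Figure D2:**
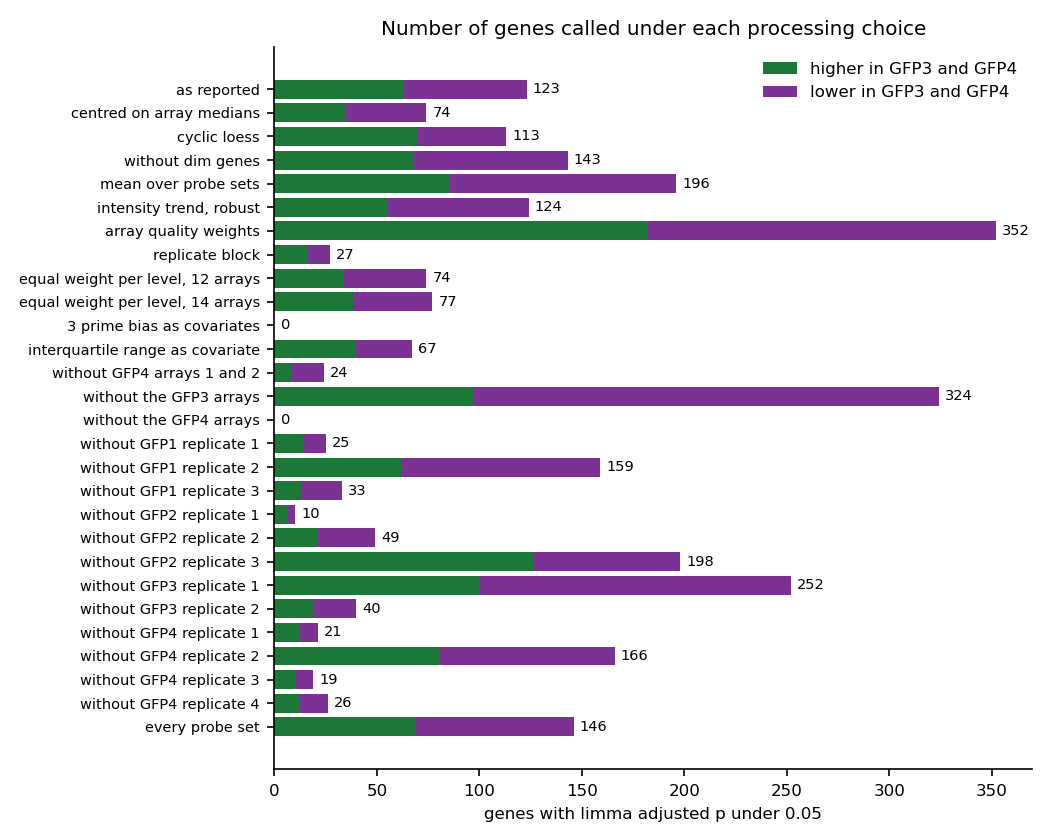
Bars give the number of genes past a limma adjusted p of 0.05 under each processing choice, split into genes higher (green) and lower (purple) in the label-retaining pool. The count was 123 as reported, 352 with array quality weights, and 0 with the 3 prime bias as covariates or without the GFP4 arrays.

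The largest difference upward was that of Meg3, the maternally expressed long noncoding RNA of the imprinted Dlk1-Dio3 region. Its log2 expression was 8.06 at the lowest, 8.84 at the median and 10.09 at the highest of the 6 intermediate arrays, and 10.67, 12.41 and 12.87 in the label-retaining arrays. The pools did not overlap, and the difference was 3.15 ± 0.44 (SE, adjusted p = 0.0133), or 8.88-fold. By level, Meg3 averaged 8.62 in GFP1, 9.26 in GFP2, 11.00 in GFP3 and 12.64 in GFP4, and it averaged 6.68 in the GFP0 cells outside the contrast. The probe set can match related transcripts (its name ends in _x_at); of the 10 other probe sets of Meg3, 3 passed the same way and 1 had the opposite sign, with differences from -0.05 to 3.04.

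Ndn encodes necdin, a growth suppressor that is imprinted and expressed in HSCs. It measured 8.61, 9.75 and 10.38 (lowest, median, highest) in the intermediate pool and 11.20, 11.55 and 12.03 in the label-retaining pool, again without overlap. The difference was 1.90 ± 0.27 (SE, adjusted p = 0.0135). Cdkn1c encodes p57, a CDK inhibitor that is imprinted too and holds HSCs out of the cycle. Its arrays lay at 7.73, 8.28 and 8.97 in the intermediate pool and at 9.18, 9.66 and 10.40 in the label-retaining pool, a difference of 1.39 ± 0.27 (SE, adjusted p = 0.0393) with no overlap.

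These 3 genes were the members that passed among 21 imprinted genes measured, beside 0.346% of all genes called higher. At an unadjusted p under 0.05, 6 of the 21 were higher, beside 6.13% of all genes, and 0 lower. The list's median difference was 0.19, beside 0.05 over all genes, and 20 of the 21 differences were positive, beside 59.3% of all genes. The mean log2 level of the list, which includes the large differences of these 3 genes, was 7.09 to 7.44 in intermediate arrays. It was 7.65 to 8.08 in label-retaining arrays. With 1 array left out, Meg3 and Ndn held in all 12 fits, while Cdkn1c held only without GFP2 replicate 3, GFP3 replicate 1 or GFP4 replicate 2 (highest adjusted p 0.103).

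Of 28 genes known as HSC markers, 8 were higher in the label-retaining pool in limma, beside 0.346% of all genes, and 0 were lower. At an unadjusted p under 0.05, 22 were higher, beside 6.13% of all genes, and none were lower. All 28 differences were above 0, beside 59.3% of all genes, and their median was 0.85. Besides Ndn, the 8 were Tgm2, Mllt3, Sult1a1, Clec1a, Pdzk1ip1, Fgd5 and Hoxb5. The mean level of the 28 genes did not overlap between the pools, with 7.98 to 9.22 in intermediate arrays and 9.33 to 9.85 in label-retaining arrays. It averaged 8.03 in GFP0, 8.25 in GFP1, 8.89 in GFP2, 9.52 in GFP3 and 9.59 in GFP4.

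Mllt3 encodes a reader of acetylated and crotonylated histones that maintains HSCs. Its intermediate arrays lay at 7.56, 8.90 and 9.52 (lowest, median, highest) and its label-retaining arrays at 9.90, 10.35 and 11.08, and both of its other probe sets passed the same way. The difference was 1.83 ± 0.34 (SE, adjusted p = 0.0348), with no overlap. Tgm2, a transglutaminase that crosslinks proteins, rose from 9.93, 11.55 and 12.35 to 12.66, 13.42 and 13.59, a difference of 1.89 ± 0.33 (SE, adjusted p = 0.0271). Its lowest intermediate array was a GFP1 array, and no intermediate array reached the label-retaining range.

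Pdzk1ip1 encodes MAP17, a small membrane protein. Its 2 sets of arrays were 10.95, 11.73 and 12.44 against 12.51, 13.16 and 13.50, a difference of 1.50 ± 0.24 (SE, adjusted p = 0.0197) with a narrow gap between the pools. Sult1a1, a sulfotransferase, differed by 1.81 ± 0.26 (SE, adjusted p = 0.0135). Its ranges just overlapped, with its lowest label-retaining array at 8.679 and its highest intermediate array at 8.683. Clec1a, a C-type lectin receptor, differed by 1.79 ± 0.33 and Fgd5, a guanine nucleotide exchange factor used to mark HSCs, by 1.47 ± 0.28. Hoxb5, a homeobox factor used in the same way, differed by 1.20 ± 0.25 (SE, adjusted p = 0.0494). The arrays of Clec1a, Fgd5 and Hoxb5 overlapped between the pools. With 1 array left out, all 8 calls held only without GFP2 replicate 3 or GFP3 replicate 1. Without GFP2 replicate 1, 1 of the 8 held, and the highest adjusted p was 0.126.

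Of the surface markers used to sort HSCs, Cd48 passed and is described with the progenitor genes, while those given here did not pass. Slamf1, which encodes CD150, lay at 6.98, 7.50 and 8.08 in the intermediate pool and at 8.08, 8.20 and 8.43 in the label-retaining pool. The pools barely missed each other, and the difference of 0.66 ± 0.17 (SE) had an adjusted p of 0.0955. Procr, the protein C receptor, had one of the wider intermediate ranges, 7.41 to 10.90, and differed by 1.67 ± 0.44 (SE, adjusted p = 0.0956). Cd34, low on mouse long-term HSCs and higher on progenitors, differed by -0.93 ± 0.29 (SE, adjusted p = 0.146). Kit, by which all these cells were sorted, differed by 0.35 ± 0.31 (SE, adjusted p = 0.628), with an interval from -0.31 to 1.02. Vwf, a gene of platelet-biased HSCs, differed by 0.88 ± 0.33 (adjusted p = 0.235) and Itga2b, which encodes CD41, by -0.81 ± 0.23 (adjusted p = 0.115). Ly6a (Sca1) is not analysed here.

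Of 28 transcription factors of stem cells, Hoxb5 alone passed, beside 0.346% of all genes called higher, and the median of the list was 0.31. At an unadjusted p under 0.05, 11 were higher and 0 lower, beside 6.13% and 7.88% of all genes. Of the 28 differences 24 were above 0, beside 59.3% of all genes. Mecom, a zinc finger factor of HSCs, differed by 1.38 (adjusted p = 0.159). The list of chromatin and DNA methylation genes had 0 of 25 members past the adjusted threshold in limma, with a median of -0.08. At an unadjusted p under 0.05 it had 3 higher and 3 lower, beside 6.13% and 7.88% of all genes. Its smallest p belonged to Satb1, a chromatin organiser of lymphoid cells, with a difference of -1.61 ± 0.35 (SE, adjusted p = 0.0522) and no overlap between the pools.

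**Figure D3:**
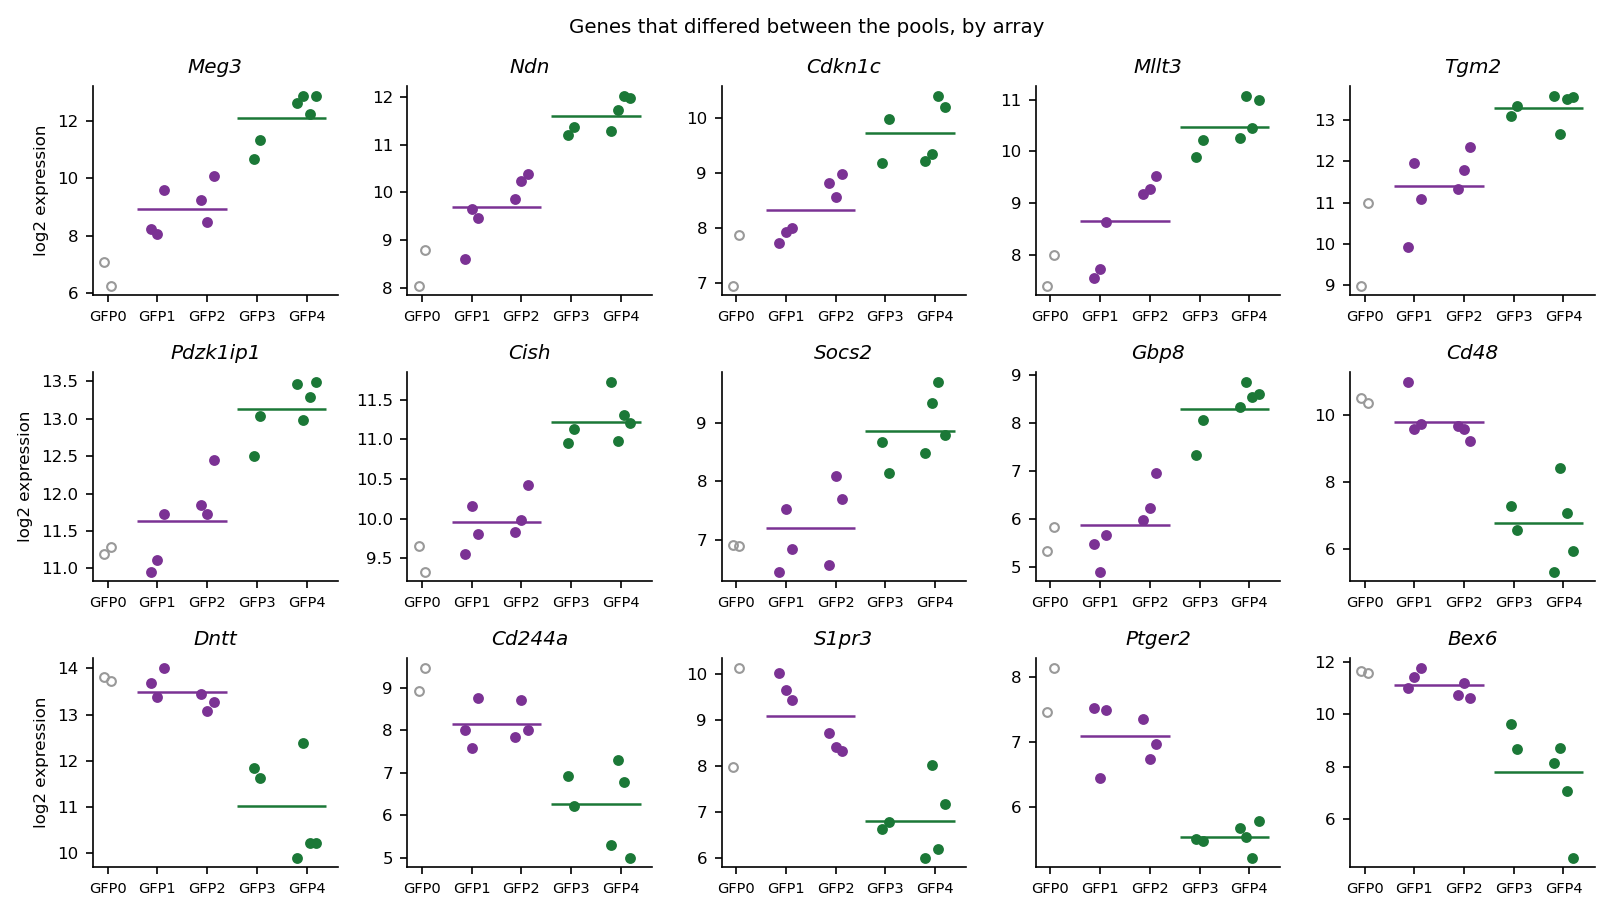
Log2 expression of 15 genes in each of the 14 arrays by GFP level; lines are the means of the intermediate pool (purple, GFP1 and GFP2) and of the label-retaining pool (green, GFP3 and GFP4), and open circles are GFP0 arrays outside the contrast. No filled purple point reaches the green range in these panels, but most of the genes were picked by a rule that required this. Among them the pools differ most in Bex6 (-3.33) and Meg3 (3.15).

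Cd48 fell farthest among the multipotent and lymphoid progenitor genes. It encodes the SLAM family protein whose absence defines HSCs. It lay at 9.23, 9.64 and 11.01 (lowest, median, highest) in the intermediate pool and at 5.31, 6.82 and 8.42 in the label-retaining pool, without overlap. The difference was -3.04 ± 0.45 (SE, adjusted p = 0.0135), or 8.25-fold lower. Cd48 averaged 6.93 in GFP3 and 6.68 in GFP4, and 10.12 in GFP1, 9.50 in GFP2 and 10.44 in GFP0. Cd244a, which encodes the receptor for CD48 and marks multipotent progenitors, differed by -1.90 ± 0.38 (SE, adjusted p = 0.0401). Its arrays lay at 7.58, 8.01 and 8.77 against 4.99, 6.51 and 7.30, also without overlap.

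Dntt encodes terminal transferase, which adds nucleotides to immunoglobulin and T cell receptor joints in early lymphoid cells. It measured 13.08, 13.42 and 14.02 in the intermediate pool and 9.90, 10.92 and 12.38 in the label-retaining pool, and both of its other probe sets passed the same way. Its difference was -2.45 ± 0.39 (SE, adjusted p = 0.019). Ccr9, a chemokine receptor that guides progenitors to the thymus, differed by -1.58 ± 0.33 (SE, adjusted p = 0.0499). Its 4 other probe sets differed by -0.15 to 0.01. The probe sets used for Dntt and Ccr9 can match related transcripts (their names end in _x_at). Cd53, a tetraspanin of blood cells, differed by -1.01 ± 0.14 (SE, adjusted p = 0.0135) and had the smallest spread of these genes.

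With Cd48, Dntt, Ccr9 and Cd53, 4 of 20 multipotent and lymphoid progenitor genes were lower, beside 0.33% of all genes, and 0 higher. At an unadjusted p under 0.05, 2 were higher and 9 lower, beside 6.13% and 7.88% of all genes. The median was -0.32, and the list mean was 9.19 to 9.84 in intermediate arrays and 8.78 to 9.04 in label-retaining arrays. Flt3, the receptor of multipotent progenitors, differed by -0.33 ± 0.22 (SE, adjusted p = 0.527). With 1 array left out, all 4 calls held only without GFP2 replicate 3 or GFP3 replicate 1, and without GFP2 replicate 1 only 1 of them held (highest adjusted p 0.130).

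Myeloid progenitor genes had the lowest median of all lists, -1.62, but in limma 0 of 16 passed. At an unadjusted p under 0.05, 9 were lower and 0 higher, beside 7.88% and 6.13% of all genes. Mpo, the myeloperoxidase of granules, varied widely within both pools, with 9.89, 13.17 and 14.06 in the intermediate pool and 7.88, 9.87 and 13.29 in the label-retaining pool. Its difference was -2.52 ± 0.88 (SE, adjusted p = 0.195). The label-retaining high of 13.29 was a single array, GFP4 replicate 2, and the other 5 lay between 7.88 and 10.48. The mean of the myeloid list was 11.10 in that array and 8.69 to 9.34 in the other 5. Without it Mpo differed by -3.16 (adjusted p = 0.0644). Plac8, the member with the smallest p, differed by -1.66 ± 0.36 (SE, adjusted p = 0.0522), and its arrays did not overlap (13.51 to 13.93 against 10.99 to 13.44). Of 24 megakaryocyte and erythroid progenitor genes, limma called 0, and the median was 0.00. At an unadjusted p under 0.05, 3 were higher and 8 lower, beside 6.13% and 7.88% of all genes. Nfe2, a transcription factor of megakaryocytes, differed by 0.58 ± 0.13 (SE, adjusted p = 0.0676).

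Markers of other cell types were measured beside these lists, and no member passed in limma. Of 13 neutrophil, monocyte and macrophage genes 13 had differences below 0 (median -0.76), beside 40.7% of all genes, and the mean level of the list was 7.21 to 10.26 in intermediate arrays and 7.32 to 9.12 in label-retaining arrays. Of 9 mast cell and basophil genes 7 were below 0 (median -1.06), with list means of 6.62 to 8.76 and 6.51 to 8.16. Of 11 B and plasma cell genes 7 were below 0 (median -0.07), with list means of 7.22 to 8.59 and 7.19 to 7.87; the means differed at p = 0.0325 by an exact permutation test and at 0.292 after adjustment over 11 measures. The T and NK cell list had 2 of 9 below 0 (median 0.09), with means of 7.09 to 7.79 and 6.96 to 7.46.

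The erythroblast list had 3 of 6 below 0 (median -0.01), and the endothelial and stromal list 2 of 13 (median 0.09), and their list means overlapped too. In limma 0 members of these 6 lists passed, with 1 of 6 erythroblast, 3 of 9 mast cell, 3 of 11 B cell, 2 of 13 neutrophil, 1 of 9 T and NK cell and 2 of 13 endothelial genes at an unadjusted p under 0.05. Of all genes 6.13% were higher and 7.88% lower at that p. Single members differed much: Ighm, the heavy chain of IgM, by -2.84 ± 0.67 (SE, adjusted p = 0.0704), Nkg7, a granule protein of cytotoxic cells, by -2.49 ± 0.53 (adjusted p = 0.0522), and Cpa3, a mast cell protease, by -1.79 ± 0.58 (adjusted p = 0.161). The part of other cells in the lower progenitor, myeloid and lymphoid genes was not tested. In such bulk samples fewer cells of a type and less RNA per cell cannot be told apart.

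Genes of DNA replication were lower in the label-retaining pool. Of 29 S phase and replication genes 5 passed, all lower, beside 0.33% of all genes. At an unadjusted p under 0.05, 25 were lower, beside 7.88% of all genes, and the median was -0.85. Of 30 genes of G2 and M phase limma called 0, yet 28 were lower at an unadjusted p under 0.05 and the median was -1.23. In each of these lists 1 difference was above 0. The list means did not overlap between the pools: 10.14 to 10.53 against 8.77 to 9.96 for S phase, and 9.63 to 10.34 against 7.53 to 9.46 for G2 and M phase.

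Both list means were lower in GFP4 than in GFP3, a difference that was not tested for the lists. The S phase mean was 10.29 ± 0.21 (SD, n = 3) in GFP1, 10.30 ± 0.17 (SD, n = 3) in GFP2, 9.83 ± 0.18 (SD, n = 2) in GFP3 and 9.19 ± 0.35 (SD, n = 4) in GFP4. The G2 and M phase mean was 9.92, 10.04, 9.38 and 8.50 in the same order. GFP0, outside the contrast, averaged 10.30 and 9.34.

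Tk1 encodes the thymidine kinase that salvages thymidine during replication. It lay at 10.60, 10.90 and 11.71 (lowest, median, highest) in the intermediate pool and at 8.16, 9.07 and 10.48 in the label-retaining pool, without overlap. The difference was -1.80 ± 0.35 (SE, adjusted p = 0.0393). Rrm1, the large subunit of ribonucleotide reductase, lay at 11.13, 11.35 and 11.70 against 9.54, 10.18 and 10.84, a difference of -1.19 ± 0.21 (SE, adjusted p = 0.0271). Tyms, the thymidylate synthase, varied little within the intermediate pool (7.38 to 7.50) and lay at 6.40 to 7.06 in the label-retaining pool, a difference of -0.79 ± 0.13 (SE, adjusted p = 0.019).

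Gins1, a subunit of the replicative helicase, differed by -1.51 ± 0.24 (SE, adjusted p = 0.0173) and Rfc5, a subunit of the clamp loader, by -1.16 ± 0.23 (SE, adjusted p = 0.0438), neither with overlap. The 5 calls held in full only without GFP1 replicate 2, GFP2 replicate 3 or GFP3 replicate 1, and without GFP2 replicate 1 or GFP4 replicate 1 none held (highest adjusted p 0.119). In the fit with the 3 prime differences as covariates their differences were -1.24 for Tk1, -0.92 for Rrm1, -0.76 for Tyms, -1.10 for Gins1 and -0.94 for Rfc5.

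Genes outside the lists with roles in replication and mitosis also fell. Pclaf, which binds PCNA at replication forks, lay at 10.13, 10.88 and 11.57 against 8.22, 9.19 and 10.06, a difference of -1.67 ± 0.31 (SE, adjusted p = 0.0354). Lrr1, the receptor subunit of a ubiquitin ligase that unloads replisomes, differed by -2.35 ± 0.39 (SE, adjusted p = 0.0209). Zwilch, a kinetochore protein, differed by -1.58 ± 0.30 (SE, adjusted p = 0.0358). None of these 3 genes overlapped between the pools, as the rule that picked them required.

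The condensin subunits Ncapg and Ncaph differed by -1.64 and -1.35, the helicase subunits Mcm8 and Gins4 by -1.18 and -0.86, and the histone chaperone Nasp by -1.18. These 5 were chosen after their values were seen, and all passed, Ncapg with overlapping arrays. All 8 calls held only without GFP3 replicate 1; without GFP1 replicate 1, GFP2 replicate 1, GFP4 replicate 1 or GFP4 replicate 3 none held. Mki67, the Ki-67 antigen of cycling cells, lay at 11.51 to 12.15 against 8.40 to 11.39 without overlap, but its difference of -1.25 ± 0.42 (SE) had an adjusted p of 0.181. Tpx2, a spindle assembly factor, had the smallest p of the G2 and M list, with -1.71 ± 0.36 (SE, adjusted p = 0.0517).

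**Figure D4:**
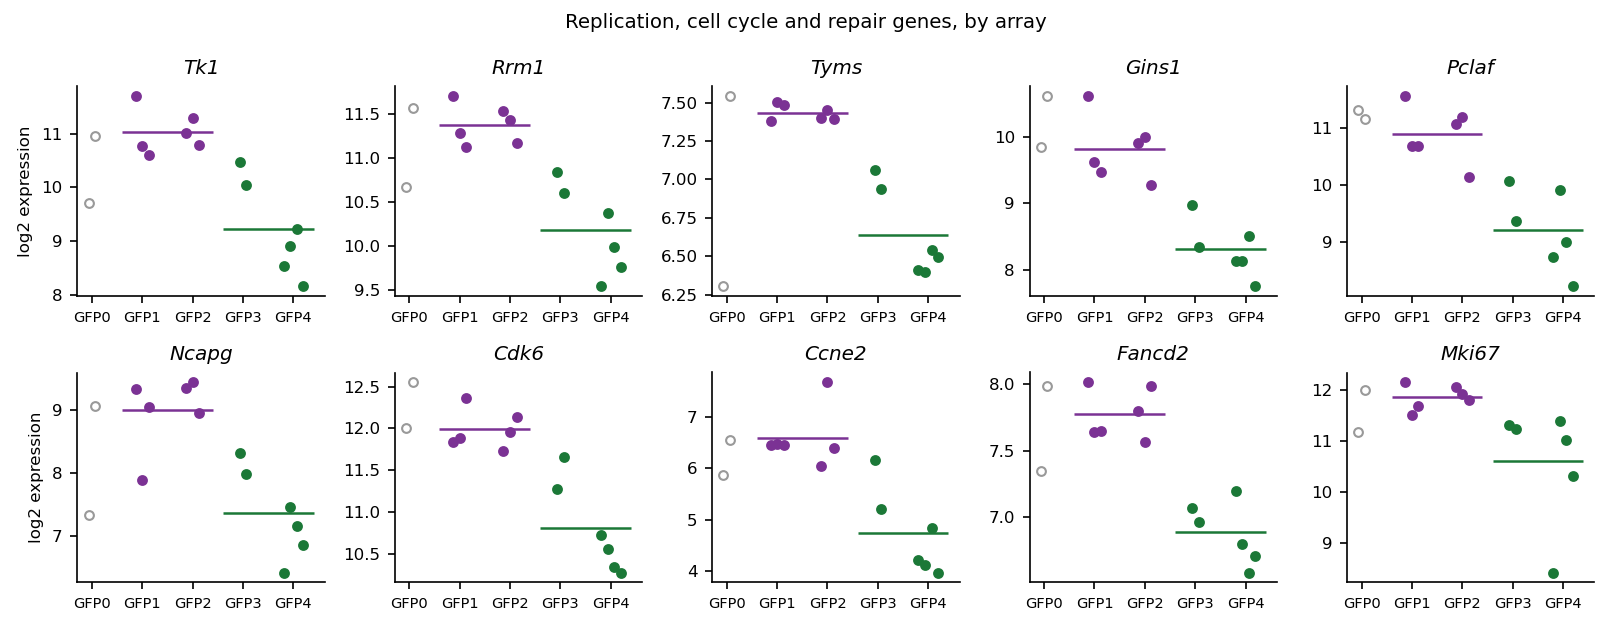
Log2 expression of 10 replication, cell cycle and repair genes in each array by GFP level, drawn as in the plot of the 15 genes (purple, intermediate; green, label-retaining; open, GFP0). GFP4 arrays tend to lie below the GFP3 arrays within the green pool, for instance in Tk1 (means of 8.71 in GFP4 and 10.26 in GFP3), a difference that was not called.

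Genes of S phase are driven by E2F factors, and genes of G2 and M phase by complexes that bind the cell cycle homology region (CHR). RefSeq promoters of GRCm38.p6, 250 bases before to 50 after the annotated start, were therefore searched on both strands for 7 motifs. Among these were the E2F site (spelled TTGGCGC, or with the same length TTCGCGC, or else TTCCCGC, or finally TTGCCGC) and the CHR (TTTGAA), neither of which contains the other. The stretches below, each 170 bases on the plus strand, are shown for a called S phase gene, a called replication fork gene and a called mitotic gene, with motif letters in capitals (E2F in Rrm1 and Pclaf, CHR in Ncapg). Their positions are chr7:102441545-102441714 for Rrm1, chr9:65890173-65890342 for Pclaf and chr5:45669775-45669944 for Ncapg.
Rrm1: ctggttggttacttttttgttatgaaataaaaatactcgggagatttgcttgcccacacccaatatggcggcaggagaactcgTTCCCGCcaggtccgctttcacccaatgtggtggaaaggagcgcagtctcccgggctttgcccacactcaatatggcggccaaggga
Pclaf: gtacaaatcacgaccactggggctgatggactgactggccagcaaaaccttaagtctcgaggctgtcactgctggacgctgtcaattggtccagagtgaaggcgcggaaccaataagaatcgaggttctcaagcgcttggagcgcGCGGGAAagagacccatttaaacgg
Ncapg: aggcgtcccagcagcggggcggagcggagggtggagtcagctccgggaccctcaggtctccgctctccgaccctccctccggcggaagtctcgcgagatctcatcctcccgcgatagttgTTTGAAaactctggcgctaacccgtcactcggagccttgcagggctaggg

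Of the S phase genes, 24 had a promoter in the table and 66.7% of these held an E2F site, beside 16.0% of 14453 promoters. Of the G2 and M phase genes, 25 had one and 72.0% held a CHR, beside 15.7%. Among the 47 called lower genes with a promoter the shares were 19.1% for E2F and 27.7% for the CHR, and among the 44 called higher genes they were 13.6% and 22.7%. The CCAAT box was held by 70.8% of the S phase and 80.0% of the G2 and M phase promoters, beside 42.0%, and the ETS motif (CCGGAAG) by 25.5% of the called lower and 4.55% of the called higher genes, beside 15.0%. The E-box (CACGTG) was also searched, as were the STAT motif and the GATA motif with its spelling of AGATAA. These matches are descriptions of letters, and the lists were chosen for their function.

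Among 27 regulators of G1 and CDK inhibitors, Cdkn1c rose and Cdk6 and Ccne2 fell, with a median of -0.28. Of all genes 0.346% were called higher and 0.33% lower. At an unadjusted p under 0.05, 3 of the 27 were higher and 11 lower, beside 6.13% and 7.88% of all genes. Cdk6, the cyclin-dependent kinase whose level sets how fast HSCs leave quiescence, lay at 11.74, 11.93 and 12.36 in the intermediate pool and at 10.28, 10.65 and 11.66 in the label-retaining pool. Its difference was -1.18 ± 0.22 (SE, adjusted p = 0.0354), without overlap. Ccne2, a cyclin of the entry into S phase, differed by -1.83 ± 0.36 (SE, adjusted p = 0.0393) with overlapping arrays. Its means of 6.58 in the intermediate and 4.75 in the label-retaining pool both lay below the table's median of 7.03. These 3 calls held together only without GFP2 replicate 3 or GFP3 replicate 1, with adjusted p up to 0.103 otherwise.

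Of 22 DNA repair genes 2 were lower, beside 0.33% of all genes, and the median was -0.50. At an unadjusted p under 0.05, 13 were lower, beside 7.88% of all genes. Fancd2, at the centre of crosslink repair, lay at 7.57, 7.72 and 8.02 against 6.58, 6.88 and 7.20, a difference of -0.89 ± 0.13 (SE, adjusted p = 0.0135). Blm, a helicase that dissolves recombination joints, differed by -0.88 ± 0.16 (SE, adjusted p = 0.031). Neither gene overlapped, and without GFP2 replicate 1 neither call held (highest adjusted p 0.0780). Both held without GFP1 replicate 2, GFP2 replicate 3, GFP3 replicate 1 or GFP4 replicate 2.

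Cish and Socs2, feedback inhibitors of cytokine signalling, rose. Cish, a SOCS family protein induced by STAT5, lay at 9.55, 9.91 and 10.42 in the intermediate pool and at 10.95, 11.17 and 11.73 in the label-retaining pool, a difference of 1.26 ± 0.17 (SE, adjusted p = 0.0124). Socs2, of the same family, lay at 6.45, 7.18 and 8.09 against 8.15, 8.73 and 9.70, a difference of 1.66 ± 0.32 (SE, adjusted p = 0.0355). Neither overlapped, as the rule that picked them required. The 5 other probe sets of Socs2 differed by 0.14 to 1.70 and none passed. Of 20 cytokine receptors limma called 0, and the median was -0.03. At an unadjusted p under 0.05, 7 were lower and 0 higher, beside 7.88% and 6.13% of all genes. The list mean was 8.22 to 8.52 in intermediate arrays and 7.99 to 8.20 in label-retaining arrays, without overlap. Il18r1, the receptor of interleukin 18, had the smallest p there, with -1.22 ± 0.29 (SE, adjusted p = 0.0758).

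The Cish promoter is shown because it holds 2 copies of the STAT motif (TTCNNNGAA, in capitals). The motif was held by 11.4% of the 44 called higher and 10.6% of the 47 called lower genes, beside 8.57% of 14453 promoters. These shares do not count copies, so the 2 copies in Cish cannot be set against them. The Cish stretch is chr9:107296509-107296678 on the plus strand of GRCm38.p6, from RefSeq. Both copies lie within its last 20 bases, from the annotated start onward.
Cish: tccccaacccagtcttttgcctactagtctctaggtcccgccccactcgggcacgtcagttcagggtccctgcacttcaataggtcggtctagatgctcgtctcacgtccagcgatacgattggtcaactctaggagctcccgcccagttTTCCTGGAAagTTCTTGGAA

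Genes of cytokine subunits went both ways. Il4, which encodes interleukin 4, differed by 1.30 ± 0.21 (SE, adjusted p = 0.0197) at levels near the table's median of 7.03. Ebi3, the shared subunit of interleukins 27 and 35, lay at 11.50 to 11.94 against 12.32 to 12.90, a difference of 0.92 ± 0.13 (SE, adjusted p = 0.0133). Il12a, the p35 subunit that pairs with EBI3 in interleukin 35, lay at 8.53 to 8.82 against 7.48 to 8.14, a difference of -0.88 ± 0.12 (SE, adjusted p = 0.0124). Ebi3 and Il12a were chosen after their values were seen. With Cish, they passed in all 12 fits that left out 1 array, while Socs2 or Il4 was lost without GFP1 replicate 1, GFP1 replicate 3, GFP2 replicate 1, GFP4 replicate 1, GFP4 replicate 3 or GFP4 replicate 4 (highest adjusted p 0.0910).

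Genes of immune GTPases were among those that rose. Gbp8, a guanylate-binding protein, lay at 4.90, 5.83 and 6.97 against 7.33, 8.44 and 8.86, a difference of 2.42 ± 0.32 (SE, adjusted p = 0.0124) or 5.34-fold. Gimap5, a GTPase that keeps lymphocytes and HSCs alive, differed by 1.12 ± 0.23 (SE, adjusted p = 0.0499), with overlapping arrays. These were the 2 called of 17 immune GTPases, beside 0.346% of all genes called higher. At an unadjusted p under 0.05, 10 were higher, beside 6.13% of all genes, and the median was 0.45. Gbp8 held in all 12 fits without 1 array, and Gimap5 only without GFP2 replicate 3 or GFP3 replicate 1 (highest adjusted p 0.130). Of 18 interferon response genes limma called 0, and the median was 0.15. At an unadjusted p under 0.05, 4 were higher and 1 lower, beside 6.13% and 7.88% of all genes. Ifit1, an interferon-induced RNA sensor, differed by 1.04 ± 0.32 (SE, adjusted p = 0.148).

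Several receptors and signalling proteins fell. S1pr3, a receptor for sphingosine-1-phosphate, lay at 8.31, 9.07 and 10.01 against 5.99, 6.70 and 8.02, a difference of -2.29 ± 0.36 (SE, adjusted p = 0.0186). Its 2 other probe sets differed by -0.10 and 0.23. Ptger2, the EP2 receptor for prostaglandin E2, lay at 6.44, 7.15 and 7.53 against 5.21, 5.51 and 5.78, a difference of -1.56 ± 0.19 (SE, adjusted p = 0.00973). Its label-retaining arrays all lay below the table's median, and its pools did not overlap. Icos, a costimulatory receptor of T cells, differed by -1.59 ± 0.25 (adjusted p = 0.0184) and Btnl9, a butyrophilin-like protein, by -1.69 ± 0.29 (adjusted p = 0.0231).

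Tespa1, which takes part in antigen receptor signalling in thymocytes, differed by -1.92 ± 0.38 (adjusted p = 0.0403), and both of its other probe sets passed the same way. Rgs10, which shortens signals of G protein-coupled receptors, differed by -1.56 ± 0.32 (adjusted p = 0.0481), and Milr1, an inhibitory receptor of mast cells, by -1.54 ± 0.22 (adjusted p = 0.0135; chosen after its values were seen). Of these genes and Cd244a, the pools overlapped in none, which the rule that picked all but Milr1 required. All 8 calls held only without GFP2 replicate 3, GFP3 replicate 1 or GFP4 replicate 2, and 1 of them without GFP2 replicate 1 (highest adjusted p 0.126).

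Bex6, of the Bex family of small adaptor-like proteins, had the second largest fall with 10.61, 11.10 and 11.78 in the intermediate pool and 4.53, 8.41 and 9.62 in the label-retaining pool. Its difference was -3.33 ± 0.66 (SE, adjusted p = 0.0393), and it averaged 9.16 in GFP3 and 7.11 in GFP4. Chdh, the choline dehydrogenase of mitochondria, lay at 7.84, 8.26 and 9.17 against 6.48, 6.84 and 6.96, a difference of -1.55 ± 0.20 (SE, adjusted p = 0.0124). Neither gene overlapped.

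Atp8b4, a phospholipid flippase, differed most, by -3.40 ± 0.69 (SE, adjusted p = 0.0462), but its label-retaining arrays spread from 5.25 to 10.28 and overlapped the others. Lyz1, a lysozyme with a close paralog (Lyz2) that could share its probes, differed by -1.84 ± 0.31 (SE, adjusted p = 0.0222). Ccl9, a chemokine of myeloid cells, differed by -1.50 ± 0.29 (SE, adjusted p = 0.0354), with overlapping arrays. Atp8b4, Lyz1 and Ccl9 were chosen after their values were seen. These 5 calls held in full only without GFP2 replicate 3, GFP3 replicate 1 or GFP4 replicate 2 (highest adjusted p 0.116).

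The other large rises were in genes of varied roles. Pkp2, the desmosome protein plakophilin 2, lay at 4.67, 5.48 and 6.77 against 7.20, 8.26 and 9.10, a difference of 2.49 ± 0.39 (SE, adjusted p = 0.0165), although its 3 other probe sets differed by only 0.14 to 0.30. Trib3, a pseudokinase induced by stress, differed by 2.04 ± 0.31 (SE, adjusted p = 0.0165) and was chosen after its values were seen. Zfp612, a zinc finger protein, differed by 2.00 ± 0.38 (adjusted p = 0.0354) and the predicted gene Gm10419 by 1.77 ± 0.20 (adjusted p = 0.00907).

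Nrk, a kinase related to Nik, differed by 1.65 ± 0.29 (adjusted p = 0.0271) and Kazald1, a secreted protein with a protease inhibitor domain, by 1.62 ± 0.24 (adjusted p = 0.0143). Obsl1, a cytoskeletal adaptor, differed by 1.57 ± 0.24 (adjusted p = 0.0165) and Trim47, a ubiquitin ligase, by 1.54 ± 0.27 (adjusted p = 0.0253). None of these 8 genes overlapped between the pools, which the rule that picked all but Trib3 required. All 8 calls held only without GFP2 replicate 3, GFP3 replicate 1 or GFP4 replicate 2, and without GFP2 replicate 1 only 1 held (highest adjusted p 0.0889).

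Of 20 genes of matrix and basement membrane 1 passed, beside 0.346% of all genes called higher, and the median of the list was 0.16. It was Fstl1, a secreted glycoprotein, which rose by 1.68 ± 0.32 (SE, adjusted p = 0.0354) with overlapping arrays. At an unadjusted p under 0.05, 4 of the 20 were higher and 1 lower, beside 6.13% and 7.88% of all genes. Bgn, the matrix proteoglycan biglycan, and Sema7a, a membrane-anchored semaphorin, differed by 1.19 and 1.22 and were chosen after their values were seen. These 3 calls held in full only without GFP2 replicate 3 or GFP3 replicate 1, with adjusted p up to 0.126. Of 21 genes of efflux and detoxification, Sult1a1 alone passed, and the median was 0.15. At an unadjusted p under 0.05, 4 of the 21 were higher and 1 lower, beside the same shares of all genes. Of 24 genes of niche adhesion and trafficking limma called 0, and the median was -0.04. At an unadjusted p under 0.05, 5 were higher and 2 lower, beside 6.13% and 7.88% of all genes. There the smallest p was that of Itgb2, the beta 2 integrin, which differed by -0.68 ± 0.24 (SE, adjusted p = 0.204).

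The remaining pathway lists had no member past the adjusted threshold in limma. At an unadjusted p under 0.05, 6.13% of all genes were higher and 7.88% lower, and the counts below stand beside these shares. Of 27 TGF-beta and BMP genes 4 were higher and 0 lower at an unadjusted p under 0.05 (median 0.10); Bmp4, a BMP ligand, differed by 0.96 ± 0.24 (adjusted p = 0.0819). Of 19 genes of oxidative phosphorylation 8 were lower and 0 higher at that p (median -0.35), with Ndufa9, a subunit of complex I, at -0.85 ± 0.20 (adjusted p = 0.0732). Of 20 genes of ribosome biogenesis and Myc 8 were lower and 0 higher (median -0.35), with Nolc1, a nucleolar chaperone, at -1.01 ± 0.25 (adjusted p = 0.0819).

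Of 20 genes of glycolysis and hypoxia 1 was higher and 4 lower (median -0.08), with Egln3, an oxygen-sensing hydroxylase, at 9.25 to 10.27 against 7.84 to 9.19 (adjusted p = 0.0742). Of 17 genes of p53, sestrins and Foxo 2 were higher and 1 lower (median 0.20), with the stress-induced Sesn2 at 0.69 ± 0.17 (adjusted p = 0.0758). Of 23 immediate early and heat shock genes 3 were higher and 1 lower (median 0.12), with the chaperone Hsp90aa1 at -0.37 ± 0.15 (adjusted p = 0.255). Of the 4 LSK phenotype genes measured 1, Cd34, was lower at an unadjusted p under 0.05, and the median was -0.09.

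**Figure D5:**
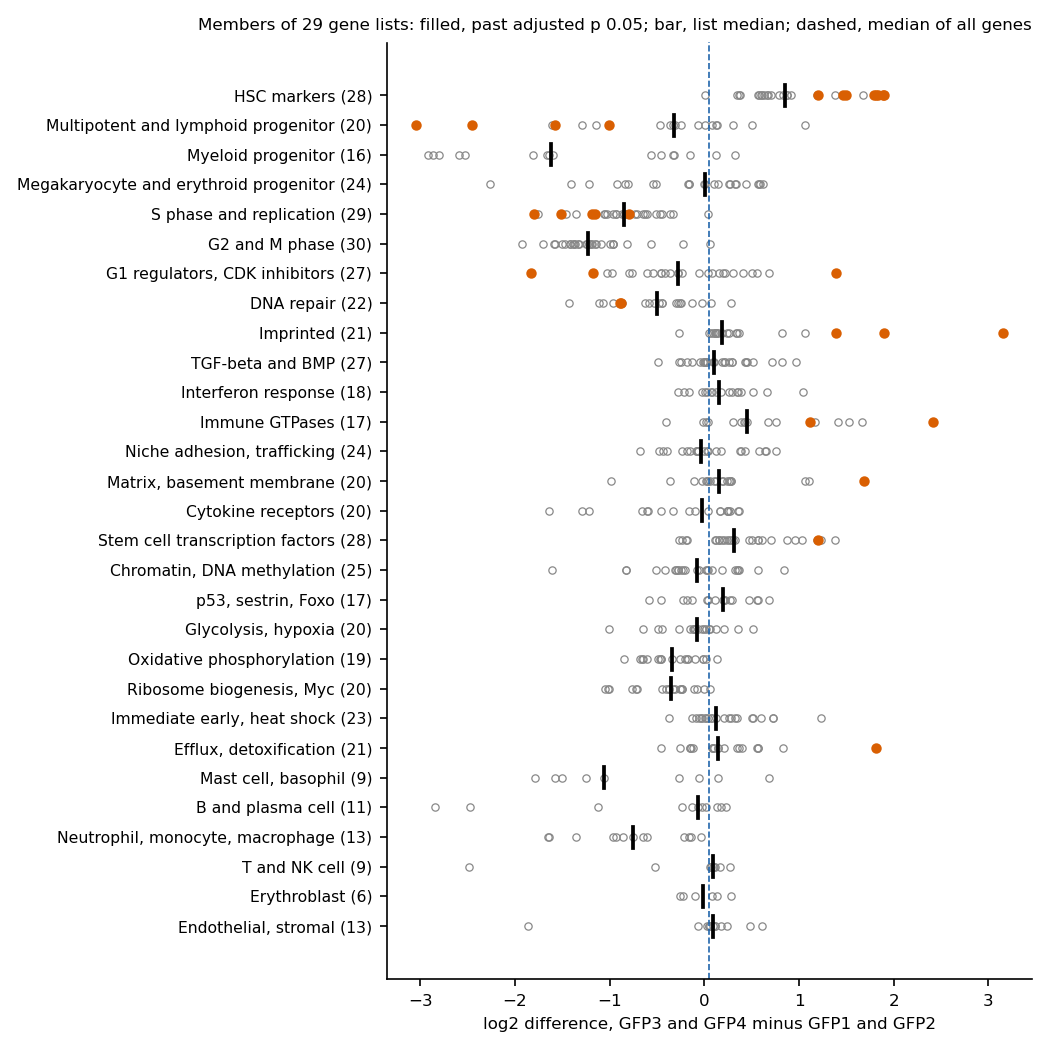
Log2 differences of the pool means for the members of 29 gene lists (number measured in brackets); filled points passed an adjusted p of 0.05, black bars are list medians and the dashed line is the median over all genes, 0.05. HSC markers sit to the right (median 0.85), and the S phase (-0.85), G2 and M phase (-1.23) and myeloid progenitor (-1.62) lists to the left.

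Levels inside a pool were compared as well, to see whether pooling joined unlike samples. Between GFP4 and GFP3 limma called 0 of 18194 genes (0.0%), with 929 (5.11%) at an unadjusted p under 0.05 and a smallest adjusted p of 0.413. Between GFP2 and GFP1 it called 0 (0.0%), with 499 (2.74%) at an unadjusted p under 0.05. With 2 arrays in GFP3 and 3 each in GFP1 and GFP2, these counts do not show that the levels of a pool were alike. Leaving out GFP1 replicate 3 gave 3 calls between GFP2 and GFP1, and each of the other arrays gave 0.

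The called genes were chosen on these same arrays, 4 of the 6 label-retaining ones from GFP4, so their levels by GFP class are a description and no evidence of an order. The median difference from the intermediate pool was 0.94 for GFP3 and 1.35 for GFP4 among genes that rose, and -0.90 and -1.52 among genes that fell. Set against GFP1 and GFP2 without the GFP4 arrays, GFP3 gave 0 calls and 816 genes at an unadjusted p under 0.05. GFP4 by itself, without the GFP3 arrays, gave 324 calls, 97 higher and 227 lower.

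The GFP0 arrays took no part in the contrast. Of the 63 genes that rose in the label-retaining pool, 50 (79.4%) had a GFP0 mean below that of the intermediate pool, beside 35.1% of the 10786 genes with a positive difference. Of the 60 that fell, 25 (41.7%) had a GFP0 mean above that of the intermediate pool, beside 34.6% of the 7408 genes with a negative difference. Meg3, Ndn and Mllt3 were lower in GFP0 than in either intermediate level, at 6.68, 8.42 and 7.70. Tk1, at 10.34 in GFP0, and S1pr3, at 9.05, were not above the intermediate mean.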

How the data were processed

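RNA of sorted LSK cells was measured on 14 one-colour Affymetrix arrays. The authors deposited log2 probe-set expression, made with GCOS, RMA and affy as listed without versions in the submitters' processing notes; RMA corrects background, normalizes quantiles and summarizes probes, so arrays are comparable only relative to a common distribution. Values lay between 2.69 and 15.1, array medians between 6.96 and 7.18, and no detection calls came with them. The genome build behind the annotation is not given in the sources used here; printed promoters are those of RefSeq (GRCm38.p6), matched by symbol.

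Of 45101 probe sets, 34958 named 1 gene symbol by the platform annotation, 932 several and 9211 none; 34754 matched RefSeq by gene identifier. The brightest probe set per symbol gave 18194 genes.

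The 2 pool means were compared over 12 arrays with lmFit and eBayes of limma 3.58.1 (R 4.3.3), in two-sided tests adjusted by Benjamini-Hochberg across the genes. Errors of differences are moderated standard errors. GFP4 against GFP3 and GFP2 against GFP1 used 4 level means. The number of arrays limits the precision. Array measures were compared by exact permutation over all splits. The fit was tested on simulated data.

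Named genes were the 14 highest and 14 lowest differences past the threshold with no overlap between the pools, a brighter pool mean at or above the table's median and a probe set not named _x_at; up to 5 called members per list and direction, or the member with the smallest p; genes by name; and genes said in the text to be chosen after their values were seen, with Fgd5. The pools, the 30 gene lists and the tests were chosen with earlier results of these data known. Alternatives were centring, cyclic loess, a filter on dim genes, other probe-set rules, another variance model, array quality weights, a replicate block, equal weight per level, covariates for 3 prime bias and array spread, and leaving out arrays or levels. Figures were drawn with matplotlib 3.10.9.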

Additional observations from a re-analysis of the deposited data

Results flagged for a closer look

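In the pools of 6 arrays, the highest or lowest array was compared with the others by Dixon's rule, which sets the gap to the nearest array against the whole range. Of 202 sets of 6 values, 17 went over it; chance alone puts about 1 in 20 groups over it. No explanation was tested for any of them.

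In the intermediate pool, GFP1 replicate 1 stood above the other arrays in Cd48 (11.01), in Itgb2 (9.48) and in the mean of the hybridisation spikes (11.12). GFP1 replicate 2 stood below them in Ncapg (7.89) and above them in the mean of the endothelial and stromal list (7.50). GFP2 replicate 2 stood above in Ccne2 (7.67), and GFP2 replicate 3 below in Zwilch (8.33).

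In the label-retaining pool, GFP3 replicate 1 stood above the others in Icos (7.83) and below them in Sult1a1 (8.68) and in Hba-a1, an alpha globin gene (5.71). GFP4 replicate 1 stood below in Tespa1 (5.86) and Mki67 (8.40), and above in the median of all its values (7.17). GFP4 replicate 2 stood above in the mast cell protease Cpa3 (9.77), in Ighm (13.41), in Csf1r, the receptor of macrophage colony-stimulating factor (11.45), and in the mean of the mast cell and basophil list (8.16). In that list the other 5 label-retaining arrays lay between 6.51 and 6.72.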

How the results depend on the processing

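The count of 123 genes was 74 with arrays centred on their medians, 196 with all probe sets of a gene averaged, 352 with array quality weights, 74 and 77 with equal weight per level (12 and 14 arrays), and 67 with the interquartile range as a covariate. It was 0 with the 3 prime differences as covariates, 24 without GFP4 arrays 1 and 2, 324 without the GFP3 arrays and 0 without the GFP4 arrays. Cyclic loess (113), the filter on dim genes (143), the intensity trend (124) and every probe set by itself (146) stayed within 1.5 times. Leaving out 1 array gave 10 to 252; inside the intermediate pool it gave 0 to 3. The cause was not tested. With the replicate block 27 genes passed, and 25 of the 123 calls were kept. The labels do not say whether arrays with the same replicate number belong together. Of 15 same-numbered pairs of arrays, 4 had deviations correlated above 0.1 (from -0.20 to 0.58). Deviations within a level of so few arrays are tied to each other, so these correlations cannot decide it. No named gene changed sign under any of 27 settings, but most were named for their differences on these same arrays. Of 1667 values for the 62 called among 90 named genes, 668 lost the threshold. Signal over background is unknown here, since no detection calls were used.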
